A study of Mus musculus with 6 samples.

Results

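The genes described here are 34 genes of the unfolded protein response and of the protein-folding machinery of the endoplasmic reticulum (ER), listed by symbol. The list was chosen with earlier results of these data known, so its counts are a description and no independent test. All 34 were measured, among 18193 named genes, on 6 oligonucleotide arrays of mouse heart RNA. Of these, 3 arrays, numbered 1 to 3, came from Des-/- mice of strain 129SV, and the other 3 from TNFαDes-/- mice of a mixed 129SV/C57 background. Every animal was 3 months old, and all of them lacked desmin, the intermediate filament protein of heart muscle, so no group here is wild type. TNFαDes-/- mice also overexpress the cytokine TNF-α in the heart, per the series title, and which promoter drives the transgene is not stated there or in the labels. The arrays gave no direct check of the transgene: Tnf itself read 5.87 ± 0.09 on the Des-/- arrays and 5.94 ± 0.19 on the TNFαDes-/- arrays (SD, n = 3; log2 change 0.07 ± 0.12 SE, limma adjusted p = 0.746), and whether its probes lie within the transgene's transcript is not known. RNA of 3 hearts per genotype was pooled, per the labels, so the arrays of a group may be repeats of a pool. P-values measure the spread between arrays, which may be technical. The transgene and the strain differ between the same groups and cannot be told apart.

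The ER folds secreted and membrane proteins with chaperones, forms their disulfide bonds with protein disulfide isomerases, and sends what fails to fold to the proteasome through ER-associated degradation. When unfolded protein accumulates, 3 sensors in the ER membrane respond. IRE1 (gene Ern1) splices the mRNA of the transcription factor XBP1. PERK (gene Eif2ak3) slows translation, which favours the factor ATF4. ATF6 is cut in the Golgi and enters the nucleus as a transcription factor. The arrays measured mRNA only, so neither splicing of Xbp1, nor phosphorylation of PERK, nor cleavage of ATF6 was read.

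Most of these genes were higher in TNFαDes-/- hearts. Of the 34, 27 rose, 1 (Ern1) fell and 6 did neither (limma, with a threshold of 0.05 on the adjusted p), where 15.2% of all genes rose and 6.05% fell. The median log2 change was 0.66, against 0.04 over all genes. Creld2 rose most, 3.03-fold, and 4 others rose at least 2-fold: Atf5, Manf, Sdf2l1 and P4hb. On 30 genes every TNFαDes-/- array lay above every Des-/- array, and on 1 every one lay below, against 24.3% and 13.7% of all genes. In whole tissue, more RNA per cell and more cells of a type rich in ER cannot be told apart.

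**Figure D1:**
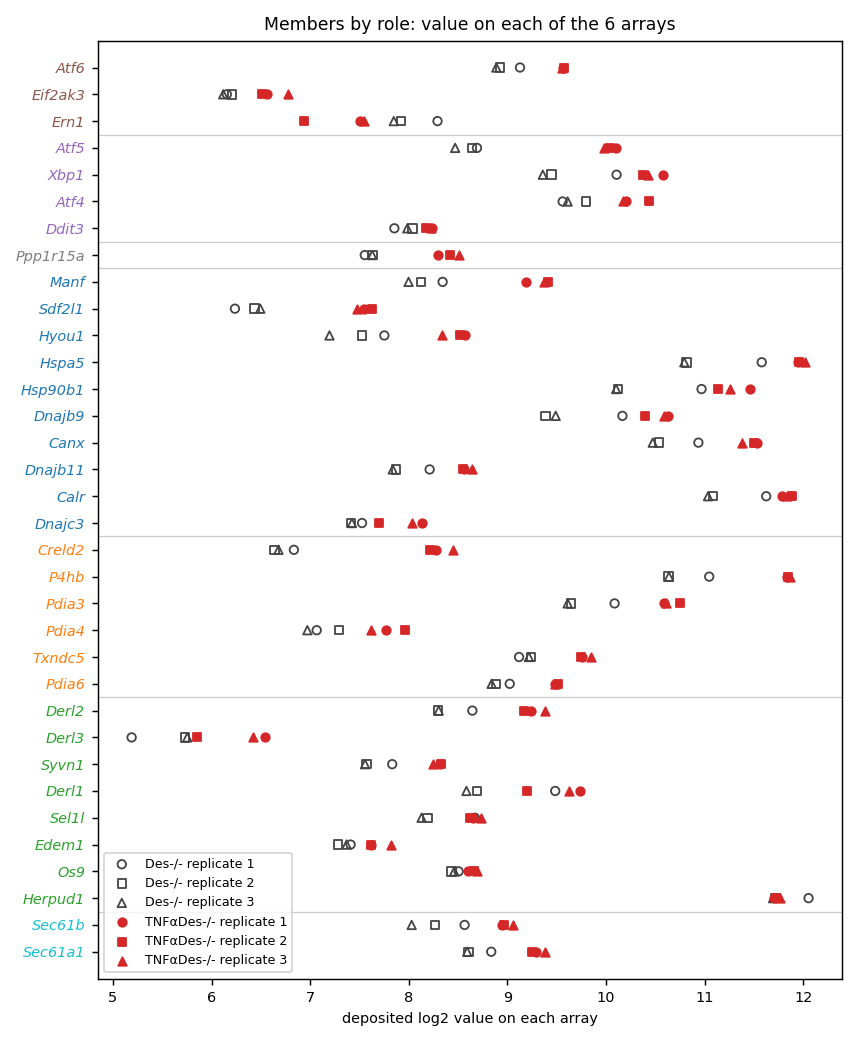
Deposited log2 value (horizontal axis) of each of the 34 genes on each of the 6 arrays, 3 Des-/- (open) and 3 TNFαDes-/- (red), with genes grouped by role and ordered by change. The groups were separated upward on 30 genes and downward on Ern1, and Des-/- replicate 1 was the highest array of its group on 26.

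The size of the rise depended on the scaling of the arrays. The deposited columns did not share a distribution: the 99th percentile of all probe sets was 12.27 on Des-/- replicate 1, 11.75 and 11.69 on replicates 2 and 3, and 12.26 to 12.31 on the TNFαDes-/- arrays. Of the 34 genes, 21 lay in the brightest of 5 equal groups of genes, and 17 of these 21 rose, where 31.2% of all genes in that group did. The median change of that group was 0.27 as deposited. Quantile normalization gives all arrays a common distribution, and with it that median was 0.02, and 24 of the 34 genes rose and 2 fell (Ern1 and Herpud1), against 12.0% and 10.4% of all genes. The members' median was then 0.48, with -0.0038 over all genes. The rises of Atf4, Calr and Txndc5 did not pass under this scaling, and the other 24 rises and the fall of Ern1 did.

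**Figure D2:**
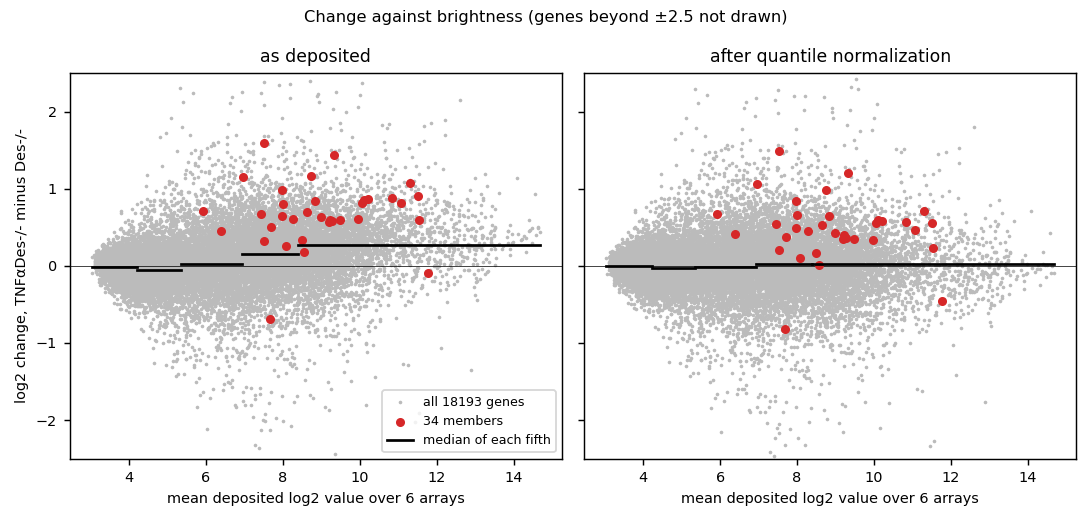
Log2 change against mean deposited log2 value for all 18193 genes (grey) and the 34 members (red), as deposited on the left and after quantile normalization on the right, with the medians of 5 equal groups of genes by brightness as black bars. The brightest group sits at 0.27 on the left and 0.02 on the right, and the members' median is 0.66 on the left and 0.48 on the right.

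Des-/- replicate 1 stood apart within its group. As deposited it was the highest Des-/- array for 26 of the 34 genes (46.2% of all genes), and for 15 of them after quantile normalization (31.5% of all genes). The median difference of the TNFαDes-/- mean from this array alone was 0.46, and from the mean of replicates 2 and 3 it was 0.76. After quantile normalization these medians were 0.46 and 0.49. Without replicate 1, 29 of the 34 genes rose. With replicate 1 as the only Des-/- array, an alternative chosen after seeing the data, 9 rose and 0 fell by limma, and 19 of the 28 calls were lost. A measure of RNA quality also moved with the groups: the log2 ratio of the 3' to the 5' control probe set was 0.32 ± 0.04 for Gapdh on the TNFαDes-/- arrays and -0.01 ± 0.03 on the Des-/- arrays (SD, n = 3), and its part in the result was not tested.

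Some of these genes, 11 of the 29 with a promoter window, share a promoter sequence, and 18 carry neither form of it. The ER stress response element (ERSE) is the classical binding site of ATF6 with the factor NF-Y and is written CCAAT, then any 9 bases, then CCACG. The related ERSE-II is ATTGG, then any base, then CCACG. RefSeq promoter windows (build GRCm38.p6, from 250 bases before to 50 after a start site) matched 29 of the 34 genes by symbol. Both strands were searched for exact matches. ERSE was found in 9 of the 29 genes, and in 37 of 27025 genes with a window (0.137%). ERSE-II was found in 2 of the 29 and in 12 of all (0.0444%). The list was made of genes known for the ER stress response, so these shares are a description and no independent result. The 10 ERSE sites are shown because they are what those members share. Each is read along the motif, with its fixed bases in capitals and 8 bases on each side.
Calr (chr8:84847067-84847101, plus strand): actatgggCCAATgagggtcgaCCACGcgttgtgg
Canx (chr11:50325792-50325826, minus strand): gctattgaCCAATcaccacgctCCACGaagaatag
Creld2 (chr15:88819512-88819546, minus strand): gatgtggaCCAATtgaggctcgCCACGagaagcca
Derl3 (chr10:75893234-75893268, minus strand): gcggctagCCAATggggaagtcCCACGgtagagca
Dnajc3 (chr14:118937819-118937853, plus strand): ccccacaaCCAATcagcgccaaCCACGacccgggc
Hsp90b1 (chr10:86705525-86705559, plus strand): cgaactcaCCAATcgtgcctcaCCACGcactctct
Hsp90b1 (chr10:86705630-86705664, minus strand): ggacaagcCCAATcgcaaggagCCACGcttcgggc
Hspa5 (chr2:34772017-34772051, plus strand): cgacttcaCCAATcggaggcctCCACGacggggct
Pdia6 (chr12:17266483-17266517, plus strand): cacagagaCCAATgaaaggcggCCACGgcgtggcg
Syvn1 (chr19:6046524-6046558, plus strand): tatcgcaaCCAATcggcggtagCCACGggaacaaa

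The sites on Hsp90b1 read in opposite directions within the same window. The ERSE-II sites of the other 2 genes, with ATTGG and CCACG in capitals, were the following.
Dnajb11 (chr16:22857844-22857870, plus strand): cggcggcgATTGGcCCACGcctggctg
Herpud1 (chr8:94386369-94386395, plus strand): gggcgctgATTGGgCCACGttggacac

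The windows of 4 genes are given over the 250 bases before the start site, in the direction of the gene, because they belong to the genes the results turn on: Hspa5 as the reference ER stress gene, Hsp90b1 with its pair of sites, Creld2 with the largest rise and Herpud1 without one. Capitals mark the fixed bases of ERSE and ERSE-II, and in Herpud1 also a match to the C/EBP-ATF element (TGATGNAA), the type of site that ATF4 binds.
Hspa5 (chr2:34771840-34772089, plus strand): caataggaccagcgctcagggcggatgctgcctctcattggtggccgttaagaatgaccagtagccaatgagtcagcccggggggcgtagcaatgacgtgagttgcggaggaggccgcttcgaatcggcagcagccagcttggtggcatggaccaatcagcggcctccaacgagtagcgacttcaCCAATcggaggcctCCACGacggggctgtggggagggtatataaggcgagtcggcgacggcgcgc
Hsp90b1 (chr10:86705445-86705694, minus strand): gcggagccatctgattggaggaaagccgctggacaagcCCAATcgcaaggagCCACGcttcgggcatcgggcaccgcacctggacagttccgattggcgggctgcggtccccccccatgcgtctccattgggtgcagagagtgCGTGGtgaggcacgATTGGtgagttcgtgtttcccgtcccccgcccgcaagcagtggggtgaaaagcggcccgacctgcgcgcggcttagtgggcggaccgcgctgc
Creld2 (chr15:88819396-88819645, plus strand): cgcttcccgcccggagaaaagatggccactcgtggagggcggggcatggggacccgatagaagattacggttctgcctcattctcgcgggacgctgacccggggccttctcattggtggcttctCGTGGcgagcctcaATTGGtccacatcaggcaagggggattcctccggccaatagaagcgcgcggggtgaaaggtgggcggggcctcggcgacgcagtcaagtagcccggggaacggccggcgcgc
Herpud1 (chr8:94386179-94386428, plus strand): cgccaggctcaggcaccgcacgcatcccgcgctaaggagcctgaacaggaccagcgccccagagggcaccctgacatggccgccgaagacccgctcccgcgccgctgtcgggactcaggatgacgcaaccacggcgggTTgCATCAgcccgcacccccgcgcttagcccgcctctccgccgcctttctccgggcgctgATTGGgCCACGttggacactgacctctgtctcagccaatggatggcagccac

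The sensors moved in different directions on their brightest probe sets. Their other probe sets did not pass as deposited. Those gave log2 changes of 0.17 and 0.30 for Atf6, 0.14 and 0.06 for Eif2ak3, and -0.35 to -0.03 for Ern1. Atf6 read 9.13, 8.92 and 8.89 on the Des-/- arrays and 9.57, 9.57 and 9.56 on the TNFαDes-/- arrays. The groups did not overlap, and the rise was 0.58 ± 0.10 on the log2 scale (SE; limma adjusted p = 0.0049; 0.36 after quantile normalization). Eif2ak3, the PERK gene, rose by 0.45 ± 0.11 (adjusted p = 0.017), from 6.15, 6.21 and 6.12 to 6.56, 6.51 and 6.77. Ern1 read 8.29, 7.92 and 7.85 on the Des-/- arrays and 7.51, 6.93 and 7.55 on the TNFαDes-/- arrays. All 3 TNFαDes-/- arrays were below all 3 Des-/- arrays, and the fall was -0.69 ± 0.19 (adjusted p = 0.031), or -0.82 after quantile normalization (adjusted p = 0.00387). The Ern1 call ended without Des-/- replicate 1 or 2 or any TNFαDes-/- array (adjusted p up to 0.0657), and that of Eif2ak3 without Des-/- replicate 2 or 3 or TNFαDes-/- replicate 1 or 3 (up to 0.0692).

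Downstream of IRE1, Xbp1 rose by 0.82 ± 0.19 (SE; limma adjusted p = 0.0158), and all 4 of its probe sets rose, by 0.60 to 1.07. Its brightest probe set read 10.11, 9.45 and 9.36 on the Des-/- arrays and 10.57, 10.37 and 10.43 on the TNFαDes-/- arrays, so Des-/- replicate 1 lay closer to the lowest TNFαDes-/- array than to replicates 2 and 3. The call ended without Des-/- replicate 2 or 3 or TNFαDes-/- replicate 1 or 3 (adjusted p up to 0.0723). The transcript and its splicing were not told apart here.

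Of the PERK arm, Atf5 moved most. This factor of the ATF4 family read 8.69, 8.64 and 8.47 on the Des-/- arrays and 10.10, 10.04 and 9.97 on the TNFαDes-/- arrays, 2.71-fold higher (log2 change 1.44 ± 0.10 SE, limma adjusted p = 8.42e-05; 1.21 after quantile normalization). The gap between the groups was far wider than the spread within either. Ppp1r15a encodes GADD34, the phosphatase subunit that restarts translation. It read 7.55, 7.63 and 7.63, then 8.30, 8.42 and 8.51, a rise of 0.81 ± 0.10 (adjusted p = 0.000984). Atf4 itself read 9.56, 9.80 and 9.61, then 10.21, 10.43 and 10.17, a rise of 0.61 ± 0.12 (adjusted p = 0.00693) that did not pass after quantile normalization (0.33, adjusted p = 0.195). Ddit3, which encodes the death-promoting factor CHOP, did not pass. It read 7.85, 8.04 and 7.98 on the Des-/- arrays and 8.23, 8.18 and 8.23 on the TNFαDes-/- arrays, a change of 0.25 ± 0.10 (adjusted p = 0.0962), or 0.10 after quantile normalization. Its groups did not overlap as deposited. After quantile normalization they did, with 7.79, 8.19 and 8.14 on the Des-/- arrays and 8.14, 8.18 and 8.09 on the TNFαDes-/- arrays.

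**Figure D3:**
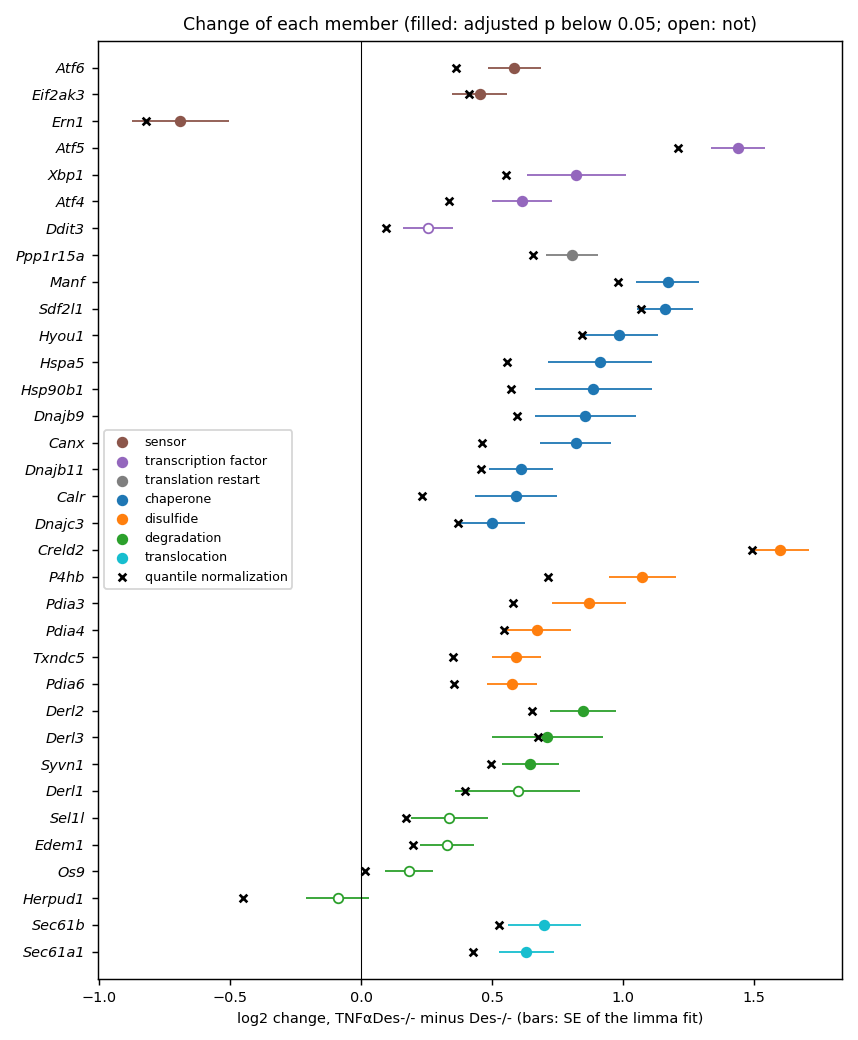
Log2 change of each of the 34 genes, TNFαDes-/- minus Des-/-, with bars for the SE of the limma fit, coloured by role. Filled points passed the test and open points did not, and crosses give the change after quantile normalization. All 10 chaperones and all 6 disulfide genes are filled, and 5 of the 8 degradation genes are open.

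All 10 chaperones and co-chaperones rose (median 0.87, or 9 rises and a median of 0.56 after quantile normalization). Hspa5 encodes BiP, the main ER Hsp70, and read 11.58, 10.81 and 10.79 on the Des-/- arrays and 11.95, 11.95 and 12.02 on the TNFαDes-/- arrays. It was 1.88-fold higher (log2 change 0.91 ± 0.20 SE, limma adjusted p = 0.0127), and Des-/- replicate 1 lay closer to the TNFαDes-/- arrays than to its own group. Hsp90b1, the ER Hsp90 known as GRP94, showed the same layout, with 10.97, 10.12 and 10.10 against 11.46, 11.13 and 11.26 (0.89 ± 0.22, adjusted p = 0.0238). Manf, a secreted factor that binds BiP, read 8.34, 8.12 and 7.997, then 9.19, 9.41 and 9.37, and was 2.25-fold higher (adjusted p = 0.000449). Sdf2l1, a partner of BiP and its J proteins, read 6.24, 6.43 and 6.49, then 7.54, 7.62 and 7.47, 2.23-fold higher (adjusted p = 0.000265). For Manf and Sdf2l1 the lowest TNFαDes-/- array was well clear of every Des-/- array. Hyou1, the ER exchange factor and Hsp70 relative GRP170, rose by 0.98 ± 0.15.

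The lectin chaperones Canx (calnexin) and Calr (calreticulin), which hold glycoproteins, rose by 0.82 ± 0.14 and 0.59 ± 0.16 (SE; limma adjusted p = 0.00394 and 0.029). The Canx call ended with probe sets named _a_at, _s_at or _x_at left out (0.32, adjusted p = 0.235). Calr gave 0.23 after quantile normalization, which did not pass (adjusted p = 0.0759). The J-domain co-chaperones of BiP rose by 0.86 ± 0.19 (Dnajb9), 0.61 ± 0.12 (Dnajb11) and 0.50 ± 0.13 (Dnajc3). Several chaperone calls were lost with single arrays left out: Calr, Dnajb9, Dnajc3 and Hsp90b1 without Des-/- replicate 2 or 3 or TNFαDes-/- replicate 1 or 3 (adjusted p up to 0.106, 0.0692, 0.105 and 0.0977), Calr also without TNFαDes-/- replicate 2, and Hspa5 without TNFαDes-/- replicate 1 or 3 (up to 0.059). The number of chaperones that rose was then 6, 6, 5 and 5 without Des-/- replicate 2, Des-/- replicate 3, TNFαDes-/- replicate 1 and TNFαDes-/- replicate 3.

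All 6 genes of disulfide formation rose (median 0.77, or 5 rises and a median of 0.56 after quantile normalization). Creld2, a small ER protein with isomerase activity, read 6.83, 6.64 and 6.68 on the Des-/- arrays and 8.28, 8.22 and 8.45 on the TNFαDes-/- arrays. Its log2 change of 1.60 ± 0.11 (SE; limma adjusted p = 6.63e-05; 1.49 after quantile normalization) ranked 75th among the rises of all genes. P4hb, the classical protein disulfide isomerase and a subunit of prolyl hydroxylase, read 11.05, 10.63 and 10.64, then 11.83, 11.84 and 11.86, 2.10-fold higher (adjusted p = 0.000873; 0.71 on the log2 scale after quantile normalization). Both genes were separated by more than the whole range of either group. Pdia3, the isomerase that works with the lectin chaperones, rose by 0.87 ± 0.14, and Pdia4, Txndc5 and Pdia6 by 0.67 ± 0.13, 0.59 ± 0.09 and 0.58 ± 0.10. The Txndc5 rise did not pass after quantile normalization (0.35, adjusted p = 0.0915). All 6 calls held with each single array left out.

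Of 8 genes of ER-associated degradation, 3 rose and 0 fell (median 0.47, or 3 rising and 1 falling with a median of 0.30 after quantile normalization). Derl2, a channel component of retrotranslocation, read 8.64, 8.30 and 8.30 on the Des-/- arrays and 9.24, 9.16 and 9.38 on the TNFαDes-/- arrays, a rise of 0.85 ± 0.13 (SE; limma adjusted p = 0.0024). Syvn1, the ubiquitin ligase HRD1, rose by 0.65 ± 0.11 (adjusted p = 0.00418), and Derl3 by 0.71 ± 0.21 (adjusted p = 0.0433). Derl3 was the dimmest gene of the 34, and its call ended without any single array other than TNFαDes-/- replicate 2 (adjusted p up to 0.16). Derl1 (0.60 ± 0.24), Edem1, a mannosidase-like lectin (0.33 ± 0.10), Sel1l, the HRD1 adaptor (0.34 ± 0.15), and Os9, a glycan-reading lectin (0.18 ± 0.09), did not pass (adjusted p = 0.114, 0.0523, 0.144 and 0.193). This count depended on the setting: 5 of the 8 rose without Des-/- replicate 1, 5 with the mean of a gene's probe sets and 6 with array weights. It ran from 2 to 5 over the single arrays left out, and was 1 when tested against a 1.2-fold change. Of the other probe sets, those of Derl1 and Edem1 were higher, while those of Derl2 (0.28) and Syvn1 (0.22) did not pass. Whether degradation genes differed from the other roles was not tested.

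Herpud1, an ER membrane partner of HRD1 and a widely used marker of ER stress, did not rise under either scaling. It read 12.05, 11.72 and 11.69 on the Des-/- arrays and 11.70, 11.73 and 11.76 on the TNFαDes-/- arrays. The groups overlapped, with a change of -0.09 ± 0.12 (SE; limma adjusted p = 0.653), and after quantile normalization it fell (-0.45, adjusted p = 0.00964). Its second probe set read lower in TNFαDes-/- hearts under both scalings (-0.38, adjusted p = 0.023, as deposited, and -0.75 after quantile normalization).

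The translocon genes Sec61b and Sec61a1, whose products form the channel through which proteins enter the ER, rose by 0.70 ± 0.14 and 0.63 ± 0.11 (SE; limma adjusted p = 0.00893 and 0.00426; 0.52 and 0.43 after quantile normalization). The other probe sets of Sec61a1 ran from -0.07 to 0.50 as deposited, and of these only that at 0.50 passed.

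By branch, with each gene placed in the arm it is best known for, the medians of the 3 arms lay between 0.61 and 0.67, and no difference between them was tested. Of 13 genes of the ATF6 arm, 11 rose and 0 fell (median 0.67; 10 and 1 after quantile normalization, median 0.55), and those that did not pass were Herpud1 and Sel1l. Of 5 genes of the PERK-ATF4 arm, 4 rose (median 0.61; 3 and a median of 0.41 after quantile normalization). Of 12 genes of the IRE1-XBP1 arm, 8 rose and 1, Ern1 itself, fell (median 0.64; 8 and 1 after quantile normalization, median 0.46). That count of rises was 4 without Des-/- replicate 2, Des-/- replicate 3, TNFαDes-/- replicate 1 or TNFαDes-/- replicate 3. The 4 genes placed in no arm (Canx, Pdia3, P4hb and Txndc5) all rose. Many of these genes answer to more than 1 arm, so the placing is a convention.

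Other probe sets of the same genes did not always follow the brightest. The 34 genes have 82 probe sets, and 24 genes have several. Of the 48 probe sets that were not the brightest, 13 were higher and 1, of Herpud1, lower (limma adjusted over all probe sets, where 9.94% were higher and 4.93% lower), and 34 did not pass. After quantile normalization 10 were higher and 3 lower, of Herpud1, Os9 and Sel1l. Xbp1 and Calr were higher on all of theirs. Derl1 was higher on its other 3 probe sets (0.43 to 0.75), as were Edem1 on its other (0.997, adjusted p = 0.0044) and Dnajc3 on 1 of its other 4 (1.25). In contrast, the other probe sets of Hspa5 gave 0.55 and -0.01, those of Canx 0.32 and 0.33, that of Hsp90b1 -0.09, and those of Hyou1 0.06 and -0.04, and none passed. Those of Sel1l gave -0.49 to -0.08, that of Os9 -0.46 and those of Ern1 -0.35 to -0.03, again with none past the test as deposited. After quantile normalization 1 of Sel1l (-0.60, adjusted p = 0.013) and that of Os9 (-0.52, adjusted p = 0.0263) were lower. The other probe sets of Pdia4 (-0.21) and Pdia6 (-0.03) lay below the median level of all probe sets and did not pass. For Atf4, 1 other probe set was higher (1.07, adjusted p = 0.00794) and the second was not past the test at -0.44 (adjusted p = 0.301). For the mean of all probe sets of a gene, 22 of the 34 rose and 1 fell, and the calls of Atf6 (0.35), Eif2ak3 (0.22), Hsp90b1 (0.40), Hyou1 (0.33), Pdia4 (0.23), Pdia6 (0.27) and Sec61a1 (0.28) ended (adjusted p = 0.0525 to 0.213). The position of the probes along each transcript was not examined.

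**Figure D4:**
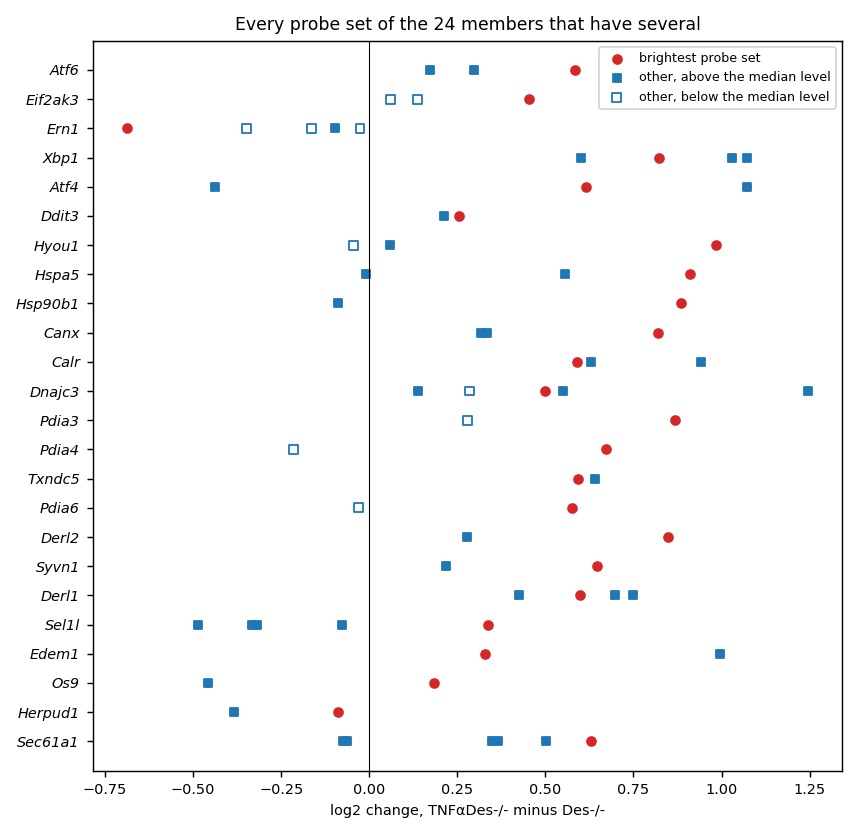
Log2 change of every probe set of the 24 genes with several, TNFαDes-/- minus Des-/-, with the brightest in red, others above the median level of all probe sets as filled squares and those below it as open squares. All probe sets of Xbp1, Derl1 and Calr lie above 0. Those of Hspa5, Hsp90b1, Hyou1, Pdia4, Pdia6, Sec61a1, Sel1l, Os9 and Atf4 lie on both sides of 0.

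Carrying an exact match to ERSE or ERSE-II in the promoter window did not go with a larger median change among these genes, as a description with no test. Near matches were not counted. Of the 11 members with ERSE or ERSE-II, 10 rose, with a median change of 0.65, and the other was Herpud1. Of the 18 with a window and neither motif, 13 rose and 1 fell, with a median of 0.69. Among genes outside the 34 that carry either motif, 18 were measured, of which 5 rose and 2 fell (median 0.23, or 3 and 2 after quantile normalization, median 0.17). Over all genes 15.2% rose and 6.05% fell. The 5 were Alg12 (a mannosyltransferase of the N-glycan precursor), Ero1b (an oxidase of the isomerases), Krtcap2 (an oligosaccharyltransferase subunit), Nucb1 and Lgalsl, with changes of 0.39 to 0.66. Alg12 and Nucb1 did not pass after quantile normalization. The 2 that fell were Acacb (-0.54) and Acnat2 (-0.38), and 11 did not pass. These genes outside the 34 were named after their values were seen. The UPRE core (TGACGTGG, the XBP1 site) was found in 1 member, Txndc5 (0.714% of all genes), the C/EBP-ATF element in 2, Herpud1 and Txndc5 (4.51%), and the CRE core (TGACGT, which the UPRE core contains) in 5 (8.37%). A match is a string in this window and no proof of binding.

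The rise extended to further genes of the ER in all 8 lists examined, which hold none of the 34. These lists, like the members, were chosen with earlier results of these data known. Of 152 such genes measured, 84 rose and 3 fell (median 0.44; 64 and 8 after quantile normalization, median 0.28), against the same 15.2% and 6.05% of all genes. The share that rose depended on brightness: it was 31.2% in the brightest of 5 equal groups of genes, 24.6% in the next and 0.769% in the dimmest. No list was compared with genes of its own brightness. Of 17 further regulators of the response, 8 rose and 1 fell. Chac1, a glutathione-degrading enzyme induced through ATF4, rose by 1.91 ± 0.10 (SE; limma adjusted p = 1.42e-05), the membrane-bound factors Creb3 and Creb3l2 by 0.73 ± 0.09 and 0.57 ± 0.10, and Mbtps2, the site-2 protease that cuts ATF6, by 0.65 ± 0.17. The factor Atf3, named after its value was seen, was the 1 that fell (-0.49 ± 0.12). Of 18 further chaperones and foldases, 9 rose and 1 fell, with Serpinh1, the collagen chaperone, at 1.16 ± 0.24, the prolyl isomerases Fkbp14 and Fkbp11 at 1.08 ± 0.15 and 1.08 ± 0.11, and Cnpy2 lower at -1.01 ± 0.17.

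Of 19 further genes of oxidative folding, 10 rose and 1 fell, among them the ER peroxiredoxin Prdx4 (0.82 ± 0.17 SE), the ER glutathione peroxidase Gpx8 (0.77 ± 0.16), Txndc11 (0.76 ± 0.12) and the selenoprotein Selenof (0.73 ± 0.18). Of 22 further degradation genes, 9 rose and 0 fell, with Ubxn4, which tethers the ATPase VCP to the ER, at 1.08 ± 0.11, Selenos at 0.95 ± 0.15, Jkamp at 0.87 ± 0.13 and the ubiquitin-conjugating enzyme Ube2j1 at 0.76 ± 0.13. Of 20 genes of N-glycosylation, 13 rose and 0 fell, with Alg5 at 0.99 ± 0.11, the oligosaccharyltransferase subunits Tusc3 and Dad1 at 0.91 ± 0.18 and 0.80 ± 0.10, and Gfpt1, the entry enzyme of the hexosamine pathway, at 0.82 ± 0.15. Of 20 genes of translocation and signal cleavage, 15 rose and 0 fell (median 0.59). The signal peptidase subunits Spcs1 and Sec11c (0.92 ± 0.11 and 0.76 ± 0.17), the translocon partner Sec63 (0.83 ± 0.11) and Ssr1 (0.87 ± 0.11) changed most there.

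Of 31 genes of transport between ER and Golgi, 17 rose and 0 fell (median 0.50, or 13 and 2 after quantile normalization, median 0.25). The GTPase regulator Arfgap3 rose by 1.38 ± 0.11 (SE; limma adjusted p = 0.000112) and the KDEL receptor Kdelr3, which returns chaperones such as BiP to the ER, by 1.30 ± 0.11 (adjusted p = 0.00016), followed by the SNARE Sec22b (1.08 ± 0.13) and Arf4 (0.97 ± 0.23). Of 5 calcium-binding CREC proteins of the secretory pathway, 3 rose (Calu 0.87 ± 0.14, Rcn3 0.41 ± 0.13 and Sdf4 0.41 ± 0.09), and only Calu did after quantile normalization.

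**Figure D5:**
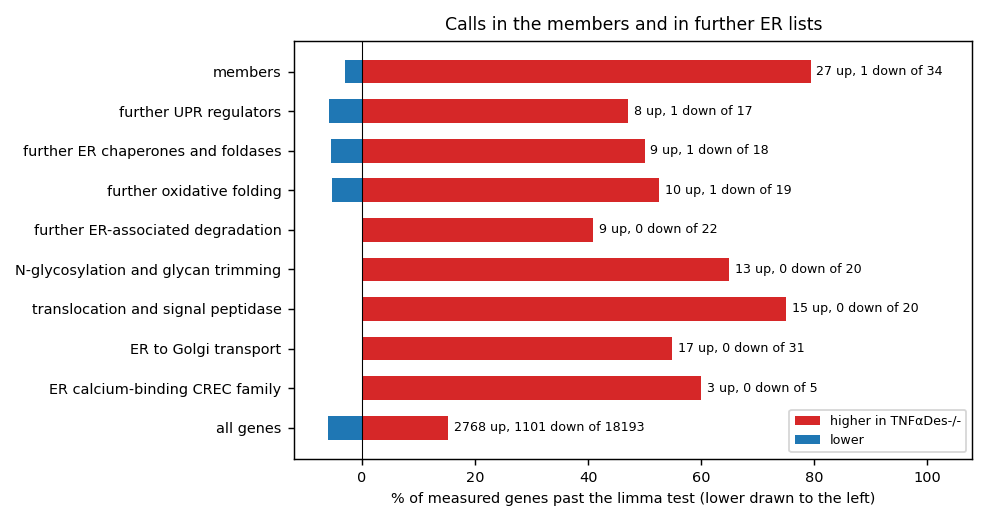
Percentage of measured genes that passed the limma test, higher in TNFαDes-/- to the right (red) and lower to the left (blue), for the 34 members, 8 further ER lists and all genes, with the counts beside each bar. The lists run from 9 of 22 to 15 of 20 genes higher, against 2768 of 18193 for all genes.

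Some markers of cell types also differed between the groups, and for each list the brightest 3 genes are named. Over all genes 15.2% rose and 6.05% fell, or 12.0% and 10.4% after quantile normalization. The lists are short, and whether any of them differed from these shares was not tested. Of 8 macrophage markers, 6 rose and 1 fell under both scalings (median 0.64, or 0.36 after quantile normalization), and their mean log2 level was 9.27 to 9.70 on the Des-/- arrays and 9.76 to 9.83 on the TNFαDes-/- arrays. C1qa (0.91) and Csf1r (0.71) rose and Lyz2 (0.25) did not pass, and the marker that fell was Cd68 (-1.48). Of 8 fibroblast markers, 2 rose and 0 fell as deposited, with mean levels of 10.61 to 11.17 and 11.06 to 11.10, and 1 rose and 3 fell after quantile normalization (median 0.21, or -0.054). Dcn rose under both scalings (0.93 and 0.58), Col1a2 rose as deposited only (0.67 and 0.30), and Col3a1 gave -0.22 as deposited and fell after quantile normalization (-0.60). The 8 markers of heart muscle cells were the brightest list (13.69 to 14.37 and 14.23 to 14.28). As deposited, 0 of them passed by limma (Actc1 0.50, Mb 0.49, Myl2 0.44; median 0.42), and after quantile normalization 0 rose and 2 fell (Ryr2 and Tnni3; median -0.094).

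Of 8 markers of plasma and B cells, which are rich in ER when they secrete antibody, 2 rose and 1 fell under both scalings (median -0.020, or 0.0066 after quantile normalization), with mean levels of 5.26 to 5.27 and 5.32 to 5.50. Those that rose were Ighm (1.30) and Jchain (0.55), both parts of secreted antibody. Jchain lay below the median of each Des-/- array (mean 4.81). Mzb1, an ER chaperone partner of plasma cells, fell (-0.48), and Sdc1 gave -0.23 and did not pass. Prdm1 (4.15 and 4.10), Irf4 (4.51 and 4.26) and Tnfrsf17 (4.42 and 4.43) lay below the median of each array in both groups. In the other lists 0 genes rose under either scaling. Endothelial markers fell in 3 of 7 cases (5 after quantile normalization), among the brightest Pecam1 (-0.42) but not Vwf (-0.23) or Cdh5 (-0.17) as deposited. Smooth muscle markers fell in 2 of 4 (Myh11 -0.85 and Smtn -0.36, with Tagln at 0.11), and adipocyte markers in 2 of 3 (Adipoq -1.27 and Cidec -0.66, with Fabp4 at -0.11), or 3 of 3 after quantile normalization. Mesothelial markers fell in 1 of 4 (Upk3b -0.44, with Lrrn4 at -0.77 and Wt1 at 0.0064) and erythroid markers in 1 of 3 (Alas2 -1.75, with Slc4a1 at 0.034 and Hba-a1 at 0.091). Slc4a1 and Hba-a1 lay below the median of each array in both groups. The part of these cells in the rise of the ER genes was not tested.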

How the data were processed

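The authors deposited log2 values per probe set, made with RMA per the submitters' processing notes, which name no version. GEO's platform annotation gave 1 symbol for 34945 of 45037 non-control probe sets, several for 932 and none for 9160. For each of 18193 genes the brightest probe set by its 6-array mean was taken, dim ones included, and all 34 members lay above the median of each array. Groups and replicate numbers came from the sample titles. TNFαDes-/- was compared with Des-/- in R 4.3.3 using lmFit and eBayes of limma 3.58.1. P-values were adjusted over all genes (Benjamini-Hochberg), and a call is an adjusted p below 0.05. The number of arrays limits the precision. Tested on simulated data (18193 genes, 50 changed per size), limma found 22% of log2 changes of 0.5, 78% of those of 1 and 100% of those of 2. On the arrays themselves 3869 genes passed, and the p-value adjustment depends on the share of genes that change. The simulated rates therefore do not measure the sensitivity of the real comparison. Every member is named; of each further list, up to 4 genes past the test with the largest change and no overlap, and of each marker list the brightest 3. Atf3, Cd68, Ryr2, Tnni3, Jchain, Prdm1, Irf4, Tnfrsf17 and the non-member ERSE genes were named after their values were seen. Alternatives covered scaling, probe-set choice, array weights, a minimum fold, a replicate block and each array left out. The members, branches and lists were chosen with earlier results of these data known. Of 159 further entries 152 were measured. Promoter windows came from RefSeq (GRCm38.p6); the 5 members without a match were Atf6, Derl1, Hyou1, Manf and Sec61a1.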

Additional observations from a re-analysis of the deposited data

How the results depend on the processing

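Of the 28 members called, 6 kept their call under each of the 19 alternatives in which they were measured: Atf5, Creld2, Manf, P4hb, Ppp1r15a and Sdf2l1 (Atf5 and P4hb had no value with _a_at probe sets left out). With each single array left out, 19 kept it. Between 19 and 29 members then rose and 0 to 1 fell, over all genes 2068 to 5814 passed, and the rises numbered 4 to 9 for the IRE1-XBP1 branch, 5 to 10 for chaperones and 2 to 5 for degradation. Quantile normalization and cyclic loess each gave 2 falls and medians of 0.48 and 0.48. Quantile normalization without Des-/- replicate 1 gave 2 falls and 0.49, and turned Ddit3 (-0.031) and Os9 (-0.060), neither of them called. Os9 also turned with cyclic loess (-0.020) and when the probe sets of a gene were averaged (-0.14), as Sel1l did with the latter (-0.18). Herpud1 ran from -0.153 to 0.027 with single arrays left out, positive without Des-/- replicate 1. Averaging gave 6 rises in the ATF6 branch and 5 in degradation. With _a_at, _s_at and _x_at probe sets left out, 28 members were measured, with 7 rises in the ATF6 branch and 5 among chaperones, and Hyou1 gave 0.06. Array weights called 8414 genes and 6 degradation rises. Testing against a 1.2-fold change (treat) called 1222 genes, 10 members higher and 0 lower, with rises of 1, 2 and 4 in the IRE1-XBP1, PERK-ATF4 and ATF6 branches, 4 chaperones, 3 disulfide and 1 degradation gene. With Des-/- replicate 1 as the only Des-/- array, 1587 genes passed, with 9 members higher and 0 lower, 0 in the IRE1-XBP1 and 4 in the ATF6 branch, 3 chaperones, 3 disulfide and 0 degradation genes and a median of 0.46, and Sel1l turned (-0.0033). With 1 array in a group, that array is assumed to vary like the others. The cause of these shifts was not tested. Correlations of same-numbered deviations were 0.25, 0.31 and -0.30, and with 3 arrays per group they cannot tell whether the replicate numbers pair the arrays. The replicate block gave 28 rises and 1 fall among the members and 4278 genes in all. Median centring, an intensity trend, robust hyperparameters and the dim filter, which all 34 members passed, gave 27 to 28 rises.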
